A study of Homo sapiens with 9 samples.

Results

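STX5 and 9 genes that act with it in membrane traffic through the Golgi apparatus were examined in RNA sequencing data from cells labelled Weri-RB1/CRP: GOSR1, GOSR2, BET1, BET1L, YKT6, SEC22B, STX6, STX16 and SCFD1. They are 10 of the 27407 features of the deposited table and were found in it by gene symbol. STX5 was selected on measured values, its estimated counts in hairpin and control groups of these libraries, so its levels against the control are described without a test. The 9 partners were chosen for their known roles, but with earlier results of these data known. All 9 passed the filter on low counts and were tested. The data comprised 9 libraries of Weri-RB1/CRP, which the labels give as a carboplatin-resistant retinoblastoma line. Most of the markers given here did not bear out that identity. They fall by their titles into 3 groups of 3: shSNHG1#1 and shSNHG1#2, which carry short hairpin RNAs designed to knock down the long noncoding RNA gene SNHG1, and shNC, which carries the control hairpin. All groups share that background, and no library of the parental line or of cells without a hairpin was analysed here. Nothing in the labels ties the replicates of a group to separate cultures, and the spread behind each p-value may therefore be technical. SNHG1 itself was not analysed here, so the knockdown was not checked.

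SNAREs are small membrane proteins that drive the fusion of transport vesicles with their target membranes. Those on the vesicle and on the target zip into a bundle of helices, to which each SNARE class (Qa, Qb, Qc and R) gives a helix. STX5, or syntaxin 5, is the Qa-SNARE of the early Golgi. With GOSR2, BET1 and SEC22B it serves traffic from the endoplasmic reticulum to the Golgi, and with GOSR1, BET1L and YKT6 it serves traffic within the Golgi. SCFD1, also called SLY1, is the Sec1/Munc18 protein that binds STX5 and helps its complexes to form. STX16 (Qa) and STX6 (Qc) act at the trans-Golgi network, where vesicles from endosomes arrive.

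Each library held 21502093 to 21606498 estimated counts in all. The cells were checked against marker genes: 7 of the 10 photoreceptor markers examined stayed below 1 FPKM (a level per kilobase of transcript that takes account of library depth) in every library, CRX reached at most 0.03 FPKM and RCVRN at most 0.09 FPKM. Over the libraries GNAT2 lay between 15.97 and 19.56 FPKM, THRB between 1.63 and 2.43 FPKM and NR2E3 between 0.79 and 1.42 FPKM. OTX2, also listed, was not among the features. The 10 markers examined together summed to 19.81 to 20.60 FPKM in shSNHG1#1, 19.55 to 20.80 FPKM in shSNHG1#2 and 21.51 to 22.81 FPKM in shNC, most of it GNAT2. The 5 simple epithelium markers, keratins KRT8 and KRT18 above all, summed to 1510 to 1602, 1515 to 1606 and 1633 to 1634 FPKM in the same groups. EPCAM, the lowest of the 5, lay between 1.56 and 3.56 FPKM. The retinoblastoma label is therefore not borne out by most of these markers, and the cells are called by their line name. The part of the marker differences in any result was not tested. A feature with no gene symbol took 11.77% to 13.54% of the counts of a hairpin library and 6.57% to 7.09% of those of an shNC library.

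Because STX5 differed so much in count, the sequence in front of its start site is shown, beside that of YKT6, the partner that rose with both hairpins, and that of SCFD1, which shares a motif with it. Each run holds the 250 bases before an annotated start, from the RefSeq promoter table of build GRCh38.p14, which held 9 of the 10 genes (BET1L was the exception), and is written 5′ to 3′ on the gene's strand. STX5 is at chr11:62832052-62832301 on the minus strand, YKT6 at chr7:44200728-44200977 on the plus strand, and the SCFD1 start with a match at chr14:30622069-30622318 on the plus strand. Capitals mark the CCAAT box and the core ACGTG, on either strand.
STX5: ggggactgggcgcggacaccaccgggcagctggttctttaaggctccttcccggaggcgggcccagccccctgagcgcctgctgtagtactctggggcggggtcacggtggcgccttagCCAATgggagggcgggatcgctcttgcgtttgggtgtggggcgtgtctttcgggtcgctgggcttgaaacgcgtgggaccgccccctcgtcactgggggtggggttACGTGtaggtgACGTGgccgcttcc
YKT6: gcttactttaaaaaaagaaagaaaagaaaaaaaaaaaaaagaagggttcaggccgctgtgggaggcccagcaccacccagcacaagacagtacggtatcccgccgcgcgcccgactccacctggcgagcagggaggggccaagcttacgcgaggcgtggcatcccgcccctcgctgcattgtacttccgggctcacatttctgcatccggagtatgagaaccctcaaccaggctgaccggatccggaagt
SCFD1: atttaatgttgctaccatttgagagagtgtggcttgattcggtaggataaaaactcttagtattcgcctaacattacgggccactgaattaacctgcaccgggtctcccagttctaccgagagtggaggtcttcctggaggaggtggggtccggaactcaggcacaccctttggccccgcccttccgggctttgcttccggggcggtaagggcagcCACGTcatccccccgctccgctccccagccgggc
The STX5 run has a G+C content of 68.4%, with 1 CCAAT that begins 131 bases before the start and 2 copies of ACGTG. The copy nearest the start is part of TGACGTGG, a consensus of the unfolded protein response element bound by XBP1. The 9 genes have 10 promoters in the table, 2 of them of SCFD1. TGACGTGG, read on both strands, was present in 2 of the 10, that of STX5, where it was picked, and 1 of SCFD1, and in 0.612% of the 35116 promoters of the table. ACGTG was present in 5 of the 10, those of BET1, GOSR2, STX5 and STX6 and 1 of SCFD1, against 18.5% of all promoters. CCAAT was present in 4 of the 10 (BET1, SEC22B, STX5 and STX6), against 32% of all promoters. GGGCGG, the GC box, was present in 6 of the 10, YKT6 among them, against 42.6%. The YKT6 run held neither CCAAT nor ACGTG. These motifs were picked after the STX5 promoter had been read, and a match of letters is a description, not a binding site.

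STX5 was near 0 in every shNC library and clearly counted in every hairpin library. Its estimated counts, rounded to whole reads, were 478, 483 and 405 in shSNHG1#1 libraries 1 to 3, 522, 519 and 442 in shSNHG1#2 libraries, and 0, 1 and 0 in shNC libraries. All 6 hairpin libraries lay far above all 3 shNC libraries, and those of the 2 hairpins overlapped. Per length, STX5 averaged 11.6 ± 1.10 FPKM in shSNHG1#1 and 12.7 ± 1.22 FPKM in shSNHG1#2, against 0.05 FPKM in 1 shNC library and 0 in the other 2 (SD, n = 3 each for the hairpin groups). Summed over a group, the counts were 1366 with shSNHG1#1, 1483 with shSNHG1#2 and 1 with shNC. The ratio per total count was thus 1366 for shSNHG1#1 (exact 95% interval 245 to 53991) and 1484 for shSNHG1#2 (266 to 58662), and these intervals cover counting error only. They describe counts on which STX5 was selected and rest on a single shNC read, so they are no test. In bulk RNA, fewer cells that make a transcript and less transcript per cell cannot be told apart. The counts may also depend on how reads were shared between STX5 and its neighbour NXF1, which was not tested.

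Between the hairpins STX5 did not pass the threshold. Its log2 fold change for shSNHG1#2 against shSNHG1#1 was 0.10 (SE 0.11, 95% interval −0.14 to 0.34), with an adjusted p of 0.728 in edgeR's quasi-likelihood test with Benjamini-Hochberg adjustment. That interval leaves room for a difference of either sign. STX5 was selected on its counts in these groups and passed the filter on low counts through the hairpin libraries alone. These values therefore describe the selecting counts and are no support for equal levels.

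A search of the whole table for the same pattern, set with the STX5 counts known, asked for at most 3 counts summed over the shNC libraries and at least 300 counts summed over each hairpin group. STX5 was the only 1 of 27407 features to meet it, and its own match was fixed in advance by limits set with its counts known. Of these features, 15132 had at least 300 counts summed over all libraries, without which neither pattern can be met. The mirror pattern was met by 1 feature, HIST1H2BC, a gene for the core histone H2B, with summed counts of 0 in shSNHG1#1, 0 in shSNHG1#2 and 314 in shNC. With the low limit raised to 30 counts, a setting added after the data were seen, 2 features met the STX5 pattern, LOC105379393 and STX5, and HIST1H2BC alone met the mirror.

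STX5 was then set beside its neighbour NXF1, the gene for the main export receptor of messenger RNA. In the RefSeq order of listed starts on this stretch of chromosome 11, only the microRNA gene MIR6514 comes between them. WDR74, a ribosome assembly factor, comes 4 places on the other side of STX5. Gene ends were not compared, so the order does not show which genes overlap. NXF1 had 2844, 2858 and 2783 counts in shSNHG1#1, 2980, 2918 and 3098 counts in shSNHG1#2, and 14452, 14889 and 14173 counts in shNC. Its groups of libraries did not overlap between either hairpin and shNC, and the direction was opposite to that of STX5. The summed count of both genes does not depend on how reads were shared between them. It came to 3284 ± 82.8 counts in shSNHG1#1, 3493 ± 51.1 counts in shSNHG1#2 and 14505 ± 361 counts in shNC (SD, n = 3 each), which is 4.42-fold lower with shSNHG1#1 and 4.15-fold lower with shSNHG1#2. The summed count was below that of shNC by 11221 per library with shSNHG1#1 and by 11012 with shSNHG1#2, where STX5 itself had on average 456 and 494 counts. The sum is mostly NXF1, so it cannot show whether reads of STX5 were credited to NXF1 in shNC. Summed FPKM does depend on how reads were shared, because the implied lengths of the genes differ. It was 27.4 ± 0.836 in shSNHG1#1, 28.0 ± 0.870 in shSNHG1#2 and 56.6 ± 1.31 in shNC, and no fold is read from it. WDR74 was also lower with both hairpins, with log2 fold changes of −1.95 and −1.91 in counts. The neighbours beyond NXF1 that the table holds differed far less: TMEM179B had 51.3 ± 1.55 FPKM in shSNHG1#1, 52.4 ± 3.68 FPKM in shSNHG1#2 and 53.9 ± 0.860 FPKM in shNC, and TAF6L had 2.39 ± 0.281, 2.26 ± 0.0917 and 2.72 ± 0.260 FPKM in the same groups (SD, n = 3 each). These neighbours were added after their values were seen.

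**Figure D1:**
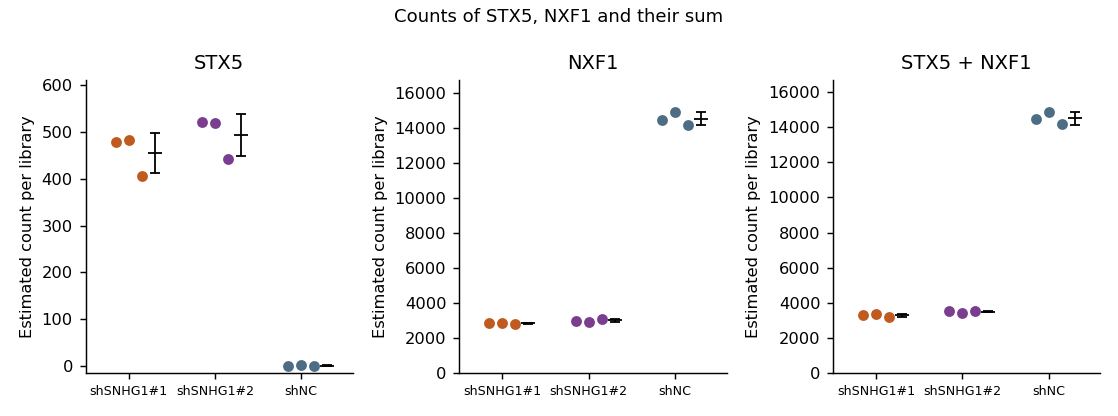
Estimated counts per library (vertical axes, linear) of STX5, NXF1 and their sum in shSNHG1#1, shSNHG1#2 and shNC; points are libraries, and the bar beside them is the mean ± SD of 3. STX5 lies between 405 and 522 in the hairpin libraries and at 0 or 1 in shNC, while the sum is 3284 and 3493 with the hairpins and 14505 in shNC.

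The length implied by the 2 deposited values of a gene depends on the mix of transcripts its reads were credited to, but does not show which they were. It is the count divided by the FPKM and by the library's total count, in bases. For STX5 it lay between 1794 and 1826 bases in all 6 hairpin libraries, and the longest STX5 transcript of GENCODE release 29 has 1794 bases. In shNC, with at most 1 read per library, no such length can be read. For NXF1 it lay between 8006 and 8669 bases in shSNHG1#1, between 8904 and 9139 bases in shSNHG1#2 and between 11862 and 11917 bases in shNC. These values are 2.01, 2.19 and 2.88 times the longest NXF1 transcript of GENCODE release 29, of 4128 bases. A change in implied length as large as that of NXF1 was seen in 0.389% of 12098 features for shSNHG1#1 and in 0.81% for shSNHG1#2. Whether any transcript of the annotation behind the counts spans both genes was not tested, since the sources used here do not name that annotation.

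**Figure D2:**
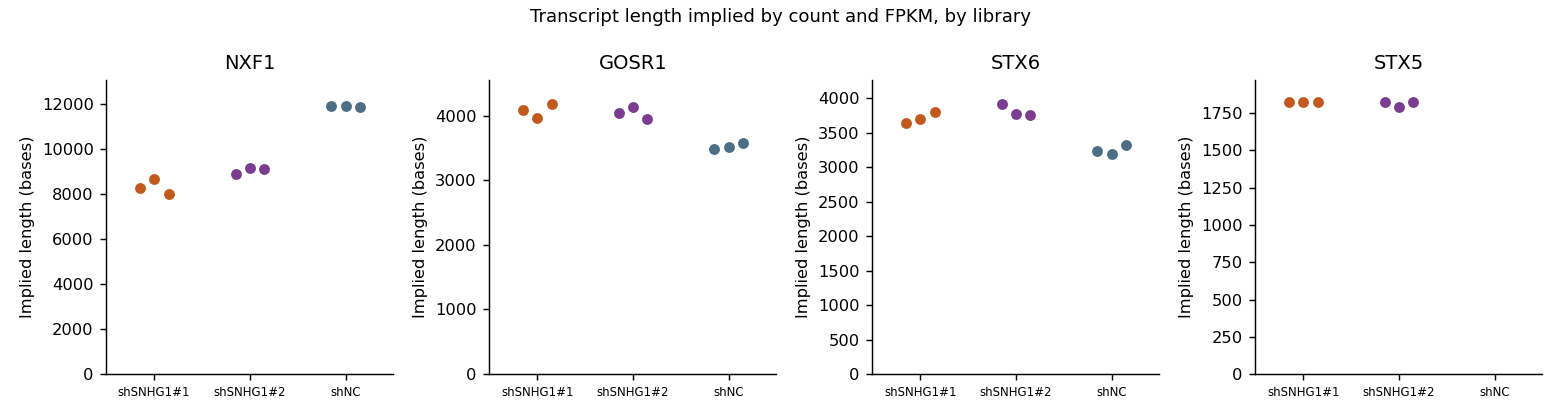
Transcript length implied by count and FPKM (vertical axes, bases, from 0) in each library of shSNHG1#1, shSNHG1#2 and shNC; points are libraries with at least 50 counts, so STX5 has no point in shNC. NXF1 is at 11862 to 11917 bases in shNC and at most 9139 bases with a hairpin, whereas GOSR1 and STX6 are longer with both hairpins than in shNC.

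The partners of STX5 changed little. With shSNHG1#1, 4 of 9 partners passed the threshold against shNC, of which YKT6 and BET1 rose and GOSR1 and SCFD1 fell; 48.1% of the 18767 features tested passed in this comparison, 24.5% higher and 23.5% lower. With shSNHG1#2, 1 of 9 passed, YKT6, which rose, against 46.2% of all features, 23.3% higher and 22.8% lower. The share of partners called was thus near that of all features with shSNHG1#1 and lower with shSNHG1#2. The median absolute log2 fold change of the 9 partners was 0.08 with each hairpin, where the median over all features was 0.29 with shSNHG1#1 and 0.27 with shSNHG1#2. All features include those with fewer counts, and no set matched to the partners in count was compared. The libraries of hairpin and shNC did not overlap for 5 partners with shSNHG1#1, as for 56.3% of features, and for 3 partners with shSNHG1#2, as for 55.8%. Both comparisons share the shNC libraries. Leaving out shNC replicate 2 or shNC replicate 3 left 2 partners called with shSNHG1#1. Scaling by library totals alone called 4 partners with shSNHG1#2, all higher (YKT6, BET1, SEC22B and STX6), beside 46.7% of features. That scaling moved the share of higher calls over all features with shSNHG1#2 to 60.9%, beside 50.5% in the main scaling.

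YKT6, the R-SNARE of the intra-Golgi complex, which is held on membranes by lipid groups and also acts in autophagosome fusion, was the partner with the largest change. It had 31.9, 29.8 and 31.4 FPKM in shSNHG1#1, 30.8, 32.0 and 30.6 FPKM in shSNHG1#2, and 23.7, 24.5 and 23.5 FPKM in shNC. Every hairpin library lay above every shNC library. In counts YKT6 rose 1.32-fold with shSNHG1#1 (log2 fold change 0.40, SE 0.04, edgeR adjusted p = 5.64e-06) and 1.28-fold with shSNHG1#2 (0.35, SE 0.04, edgeR adjusted p = 1.77e-05). These calls held under every other scaling, test, filter and left-out library tried. Its implied length was 2377 to 2406 bases in shSNHG1#1, 2265 to 2377 bases in shSNHG1#2 and 2228 to 2364 bases in shNC.

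The other R-SNARE, SEC22B, found on vesicles from the endoplasmic reticulum, had 19.0, 19.6 and 20.0 FPKM in shSNHG1#1, 20.2, 18.6 and 19.8 FPKM in shSNHG1#2, and 17.9, 18.6 and 17.4 FPKM in shNC. The hairpin libraries were all higher in FPKM, but their counts overlapped those of shNC after scaling. Its log2 fold changes of 0.07 and 0.08 did not pass the threshold (edgeR adjusted p = 0.338 and 0.22). Near copies of SEC22B share sequence with it: SEC22B2 averaged 1.32 FPKM in shSNHG1#1, 1.18 FPKM in shSNHG1#2 and 1.48 FPKM in shNC, and SEC22B3 stayed at a mean of 0.157 FPKM or less, so reads of SEC22B may be split among them.

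GOSR1, the Qb-SNARE of the intra-Golgi complex also known as GS28, fell with shSNHG1#1. It had 1571, 1620 and 1629 counts in shSNHG1#1, 1785, 1729 and 1751 counts in shSNHG1#2, and 1744, 1798 and 1706 counts in shNC. The shSNHG1#1 libraries lay below all others, and those of shSNHG1#2 and shNC overlapped. The log2 fold change was −0.17 with shSNHG1#1 (SE 0.03, edgeR adjusted p = 0.00162) and −0.06 with shSNHG1#2 (95% interval −0.13 to 0.01, edgeR adjusted p = 0.176), and the value with shSNHG1#2 turned to 0.01 with library totals alone. For shSNHG1#2 against shSNHG1#1 the log2 fold change was 0.11, with an unadjusted p of 0.00781 and an adjusted p of 0.127 in edgeR's test over all features.

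FPKM gave a larger difference for GOSR1 than counts did. It was 17.8, 19.0 and 18.1 FPKM in shSNHG1#1, 20.5, 19.5 and 20.7 FPKM in shSNHG1#2, and 23.2, 23.7 and 22.2 FPKM in shNC, with all hairpin libraries below all shNC libraries. The implied length differed in the other direction, at 3962 to 4184 bases in shSNHG1#1, 3943 to 4135 bases in shSNHG1#2 and 3491 to 3576 bases in shNC. A change in implied length this large was seen in 4.61% of features with shSNHG1#1 and in 5.53% with shSNHG1#2, where the median absolute change was 0.02 on the log2 scale. A test with limma on log2(FPKM + 1) gave GOSR1 a log2 fold change of −0.32 with shSNHG1#1 (adjusted p = 0.000144) and of −0.18 with shSNHG1#2 (adjusted p = 0.00449). On that scale 4 of 9 partners passed with each hairpin, and they were the same genes: YKT6, BET1 and SEC22B rose, and GOSR1 fell. Of the features tested on the FPKM scale, 55.3% passed with shSNHG1#1 and 53.3% with shSNHG1#2.

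**Figure D3:**
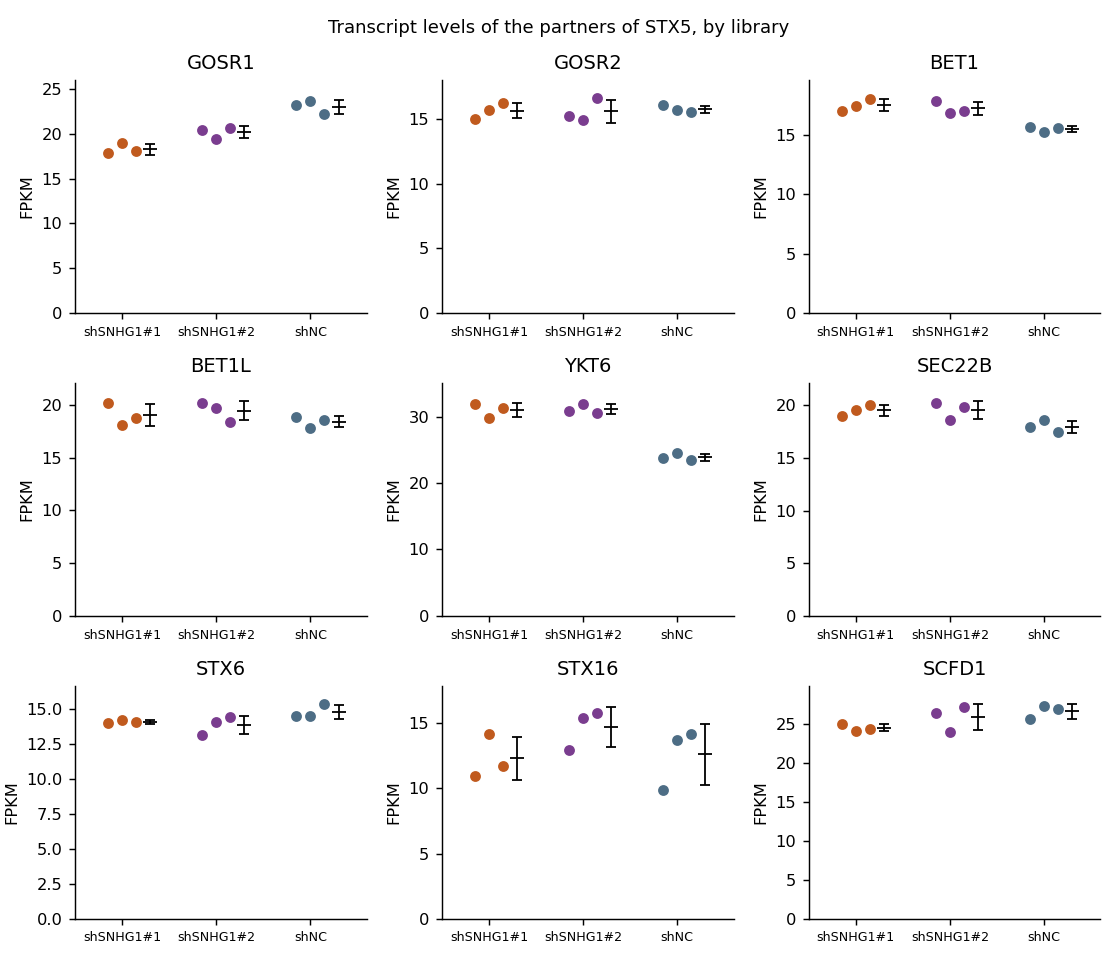
FPKM (vertical axes, from 0) of the 9 partners of STX5 in each library of shSNHG1#1, shSNHG1#2 and shNC; points are libraries, and the bar beside them is the mean ± SD of 3. YKT6 is above 29 FPKM in every hairpin library and below 25 FPKM in every shNC library, GOSR1 is highest in shNC, and the other partners differ less.

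GOSR2, or membrin, the Qb-SNARE of traffic from the endoplasmic reticulum, did not pass the threshold. It had 15.01, 15.7 and 16.2 FPKM in shSNHG1#1, 15.3, 14.9 and 16.6 FPKM in shSNHG1#2, and 16.0, 15.7 and 15.5 FPKM in shNC. These groups overlapped in FPKM, while in scaled counts all hairpin libraries lay below those of shNC. In counts its log2 fold change was −0.08 with shSNHG1#1 (95% interval −0.17 to 0.01, edgeR adjusted p = 0.117) and −0.09 with shSNHG1#2 (−0.18 to −0.0041, edgeR adjusted p = 0.0818).

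BET1 and BET1L are the Qc-SNAREs of the 2 complexes, BET1 for traffic from the endoplasmic reticulum and BET1L, or GS15, within the Golgi. BET1 had 17.0, 17.4 and 18.02 FPKM in shSNHG1#1, 17.8, 16.8 and 17.0 FPKM in shSNHG1#2, and 15.6, 15.2 and 15.6 FPKM in shNC. Every hairpin library lay above every shNC library. In counts BET1 rose 1.11-fold with shSNHG1#1 (log2 fold change 0.15, SE 0.05, edgeR adjusted p = 0.0231), and the log2 fold change with shSNHG1#2 was 0.08 (edgeR adjusted p = 0.234). The call with shSNHG1#1 was lost with DESeq2 (adjusted p = 0.089), without a filter on low counts (0.0644), with only the 2 groups compared in the fit (0.0675), and without any 1 of shSNHG1#1 replicate 2 or 3, shSNHG1#2 replicate 3 or shNC replicate 1, 2 or 3 (up to 0.116). BET1L averaged 19.03 ± 1.057 FPKM in shSNHG1#1, 19.4 ± 0.907 FPKM in shSNHG1#2 and 18.4 ± 0.551 FPKM in shNC (SD, n = 3 each). Its groups overlapped, with log2 fold changes in counts of 0.00 (95% interval −0.11 to 0.12, edgeR adjusted p = 0.957) and 0.01 (−0.10 to 0.12, edgeR adjusted p = 0.909), and the sign of each changed with the filter on low counts.

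SCFD1, the SLY1 protein that binds STX5, fell with shSNHG1#1. It had 823, 890 and 885 counts in shSNHG1#1, 983, 883 and 970 counts in shSNHG1#2, and 910, 931 and 956 counts in shNC. The shSNHG1#1 libraries lay below all shNC libraries, and those of shSNHG1#2 overlapped with both. The log2 fold change was −0.15 with shSNHG1#1 (SE 0.05, edgeR adjusted p = 0.0316) and −0.04 with shSNHG1#2 (95% interval −0.16 to 0.07, edgeR adjusted p = 0.532). The call was lost with library totals alone (adjusted p = 0.112), with limma on log2(FPKM + 1) (0.07), and without shSNHG1#1 replicate 1 (0.0953) or 3 (0.0503) or shNC replicate 2 (0.0629) or 3 (0.0798), and the value with shSNHG1#2 turned to 0.02 with library totals alone.

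STX6 and STX16, the pair at the trans-Golgi network, did not pass the threshold with either hairpin. STX6 had 1099, 1135 and 1153 counts in shSNHG1#1, 1111, 1141 and 1166 counts in shSNHG1#2, and 1014, 999 and 1098 counts in shNC. Its hairpin libraries all lay above those of shNC in raw counts and overlapped with them after scaling, with log2 fold changes of 0.08 (edgeR adjusted p = 0.155) and 0.07 (edgeR adjusted p = 0.184). In FPKM the order was the opposite, with 14.1 ± 0.135 FPKM in shSNHG1#1, 13.9 ± 0.664 FPKM in shSNHG1#2 and 14.8 ± 0.471 FPKM in shNC (SD, n = 3 each), so the sign depends on the scale. The implied length of STX6 was 3643 to 3792 bases in shSNHG1#1, 3755 to 3914 bases in shSNHG1#2 and 3192 to 3321 bases in shNC, a change equalled by 5.45% and 3.7% of features.

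STX16 varied most between libraries of a group. It had 1166, 1471 and 1242 counts in shSNHG1#1, 1379, 1619 and 1614 counts in shSNHG1#2, and 1055, 1425 and 1476 counts in shNC. All groups overlapped, with log2 fold changes of −0.07 (95% interval −0.35 to 0.20, edgeR adjusted p = 0.667) and 0.16 (−0.12 to 0.43, edgeR adjusted p = 0.337). The table also lists the readthrough gene STX16-NPEPL1, which shares exons with STX16 and had 2362, 2150 and 2528 counts in shSNHG1#1, 2385, 2257 and 2346 counts in shSNHG1#2, and 2824, 2644 and 2123 counts in shNC. The sum over both does not depend on how reads were split between these 2 genes. It came to 3640 ± 122 counts in shSNHG1#1, 3867 ± 98.4 in shSNHG1#2 and 3849 ± 236 in shNC (SD, n = 3 each). The coefficient of variation of that sum was 3.35%, 2.54% and 6.14%.

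**Figure D4:**
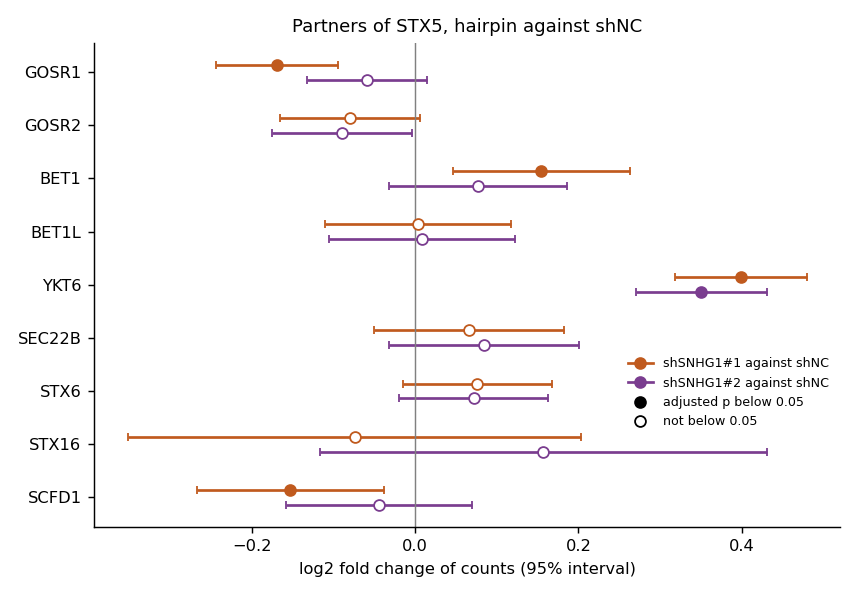
Log2 fold change of counts (horizontal axis) with its 95% interval for the 9 partners, for shSNHG1#1 and shSNHG1#2 against shNC, from edgeR; filled points passed an adjusted p of 0.05. YKT6 alone is filled with both hairpins, at 0.40 and 0.35, and the widest intervals are those of STX16.

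Between the hairpins, 0 of 9 partners passed the threshold for shSNHG1#2 against shSNHG1#1 in edgeR's test, against 3.12% of all features. At an unadjusted p below 0.05 there was 1, GOSR1, and DESeq2 and limma on FPKM also called 0, where limma called 3.35% of features. The libraries of the 2 hairpins did not overlap for 1 partner, GOSR1, as for 20.8% of features. The log2 fold changes ran from −0.08 for BET1 (95% interval −0.19 to 0.03) to 0.23 for STX16 (−0.04 to 0.51).

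Ranked by FPKM, STX5 had the lowest mean of the 10 genes in every group, at 11.6 in shSNHG1#1, 12.7 in shSNHG1#2 and 0.0167 in shNC. With the hairpins its libraries overlapped those of the gene above it, STX16 at 12.3 FPKM in shSNHG1#1 and STX6 at 13.9 FPKM in shSNHG1#2. YKT6 was the highest with both hairpins, at 31.0 and 31.1 FPKM, followed by SCFD1 at 24.5 and 25.9 FPKM, without overlap. In shNC the order of these was the reverse, with SCFD1 at 26.6 FPKM above YKT6 at 23.9 FPKM, also without overlap. Next in both hairpin groups came SEC22B, BET1L and GOSR1, whose libraries overlapped from each to the next in the order. In shNC, GOSR1 at 23.0 FPKM overlapped with YKT6 and stood clear of BET1L at 18.4 FPKM.

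Wider lists of the transport machinery were read in the same fit. Of 107 genes listed, 106 were tested; 34 rose and 25 fell with shSNHG1#1, or 55.7% called, and 33 rose and 23 fell with shSNHG1#2, or 52.8%. These pooled shares stood near the 48.1% and 46.2% of all features. With shSNHG1#1 the share called was 62.1% of other SNAREs, 54.5% of the fusion cycle, 50% of COG and 40% of GARP and EARP. It was 50% of TRAPP, 35.7% of golgins, 54.5% of COPI and 78.6% of COPII. With shSNHG1#2 the shares were 55.2%, 54.5%, 62.5%, 20%, 57.1%, 28.6%, 54.5% and 71.4% in the same order. No list was tested as a set. The rule for named genes took 31 of the 106 genes tested, of which 10 are given here, picked after their values were seen.

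Among 29 other SNAREs tested, 8 rose and 10 fell with shSNHG1#1, and 7 rose and 9 fell with shSNHG1#2. That is 62.1% and 55.2% called, beside 48.1% and 46.2% of all features. SNAP25, a SNARE of regulated exocytosis in neurons, had 56.4 ± 1.57 FPKM in shSNHG1#1, 57.3 ± 0.452 FPKM in shSNHG1#2 and 38.5 ± 1.19 FPKM in shNC (SD, n = 3 each), and rose 1.42-fold with each hairpin (edgeR adjusted p = 7.16e-07 and 8.23e-07). STX17, the SNARE of autophagosomes, a process in which YKT6 also acts, had 7.29 ± 0.167 FPKM in shSNHG1#1, 7.95 ± 0.453 FPKM in shSNHG1#2 and 11.3 ± 1.07 FPKM in shNC, and fell 1.47-fold and 1.34-fold (edgeR adjusted p = 6.23e-07 and 5.46e-06). Over the list the median log2 fold change came to 0.03 with each hairpin, beside 0.02 and 0.01 over all features.

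Of 11 genes of the fusion cycle, 4 rose and 2 fell with shSNHG1#1, and 5 rose and 1 fell with shSNHG1#2. That is 54.5% called with each hairpin, near the 48.1% and 46.2% of all features. NAPA, the adaptor (alpha-SNAP) that recruits NSF to take used SNARE bundles apart, had 11.02 ± 1.92 FPKM in shSNHG1#1, 17.9 ± 0.870 FPKM in shSNHG1#2 and 18.04 ± 2.10 FPKM in shNC. It fell 1.65-fold with shSNHG1#1 (edgeR adjusted p = 5.58e-05), and its log2 fold change with shSNHG1#2 was −0.17 (edgeR adjusted p = 0.144).

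The tethering complexes hold a vesicle before its SNAREs engage. Of 8 subunits of COG, which tethers vesicles within the Golgi and binds STX5, 3 rose and 1 fell with shSNHG1#1, and 3 rose and 2 fell with shSNHG1#2. The share called was 50% with shSNHG1#1 and 62.5% with shSNHG1#2, beside 48.1% and 46.2% of all features. COG3 fell with both in counts (log2 fold change −0.38 and −0.35, edgeR adjusted p = 3.64e-05 and 7.37e-05), a call that limma on log2(FPKM + 1) did not make with shSNHG1#1 (adjusted p = 0.102). Of 5 subunits of GARP and EARP, which tether vesicles at the trans-Golgi network and at endosomes, 1 rose and 1 fell with shSNHG1#1, and 0 rose and 1 fell with shSNHG1#2. Their shares called, 40% and 20%, stood below those of all features. VPS53 rose with shSNHG1#1 in counts (log2 fold change 0.19, edgeR adjusted p = 0.00514), where its FPKM means were 9.86 in shSNHG1#1, 9.82 in shSNHG1#2 and 9.67 in shNC, and limma on log2(FPKM + 1) gave an adjusted p of 0.792.

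Of 14 TRAPP subunits, 4 rose and 3 fell with shSNHG1#1, and 6 rose and 2 fell with shSNHG1#2. That is 50% and 57.1% called, beside 48.1% and 46.2% of all features. TRAPPC4, a core subunit, rose 1.78-fold with shSNHG1#1 (edgeR adjusted p = 0.00022) and 1.36-fold with shSNHG1#2 (edgeR adjusted p = 0.0138). The call with shSNHG1#2 was lost without shSNHG1#2 replicate 3, shNC replicate 1 or shNC replicate 3 (adjusted p 0.0537 to 0.0552). Of 14 golgins and stacking proteins, 3 rose and 2 fell with shSNHG1#1, and 2 rose and 2 fell with shSNHG1#2. Their shares called, 35.7% and 28.6%, stood below those of all features. BLZF1, or golgin-45, had 10.5 ± 0.452 FPKM in shSNHG1#1, 11.8 ± 0.794 FPKM in shSNHG1#2 and 16.3 ± 0.748 FPKM in shNC, and fell 1.51-fold and 1.39-fold (edgeR adjusted p = 8.31e-06 and 5.24e-05).

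The coats form the vesicles that STX5 complexes receive. Of 14 COPII genes, which act in export from the endoplasmic reticulum, 7 rose and 4 fell with shSNHG1#1, and 7 rose and 3 fell with shSNHG1#2. That is 78.6% and 71.4% called, beside 48.1% and 46.2% of all features. SAR1A, the small GTPase that starts the COPII coat, had 44.2 ± 2.96 FPKM in shSNHG1#1, 40.4 ± 4.32 FPKM in shSNHG1#2 and 30.7 ± 1.60 FPKM in shNC, and rose 1.57-fold and 1.44-fold (edgeR adjusted p = 1.32e-08 and 8.43e-08). SEC24A, a cargo adaptor of the same coat, had 11.8 ± 0.495, 12.5 ± 0.430 and 17.3 ± 0.685 FPKM in the same groups, and fell 1.44-fold and 1.37-fold (edgeR adjusted p = 7.18e-07 and 2.51e-06). Of 11 COPI genes, 4 rose and 2 fell with shSNHG1#1, and 3 rose and 3 fell with shSNHG1#2. COPZ1, a subunit of the COPI coat of retrograde vesicles, rose 1.21-fold and 1.12-fold (edgeR adjusted p = 2.05e-05 and 0.00099).

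**Figure D5:**
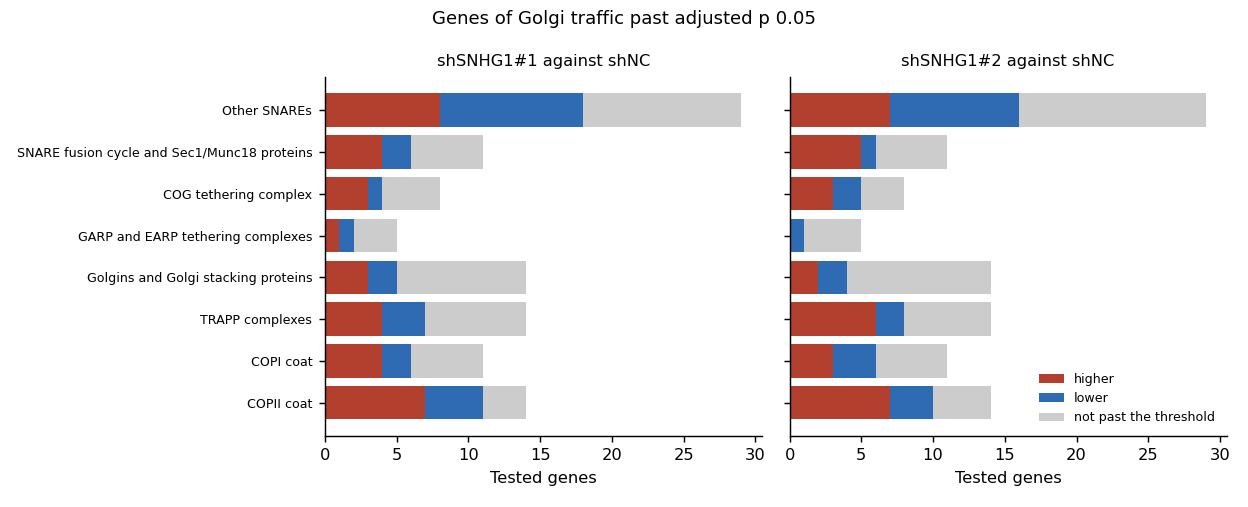
Number of tested genes (horizontal axes) in 8 lists of transport machinery that were higher, lower or not past an adjusted p of 0.05 in edgeR, for shSNHG1#1 and for shSNHG1#2 against shNC. Each list holds genes of both directions with shSNHG1#1, and 34 higher and 25 lower genes in all. Over all features tested, 48.1% passed with shSNHG1#1 and 46.2% with shSNHG1#2.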

How the data were processed

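The authors deposited estimated counts of reads, labelled as read counts per the file headers, for each of 27407 features and 9 libraries, and the values are not whole. The authors deposited an expression value beside each, read here as FPKM because count over value and library total gives a plausible transcript length; the header names no unit. Per the submitters' processing notes the tools were RSEM 1.2.12, HISAT2 2.0.4, DESeq2 1.4.5 and Bowtie2 2.2.5, without a role for any. The sources used here name no build, annotation or use of strand, so reads of overlapping or near-identical genes are uncertain.

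The main test, on rounded counts, used edgeR 4.0.16 (R 4.3.3) with TMM scaling and filterByExpr, which kept 18767 features. Its quasi-likelihood model held group alone for all 9 libraries, and p-values were adjusted by Benjamini-Hochberg, with a threshold of 0.05. The median biological coefficient of variation was 7.28%. Tests were tried on simulated data first. Alternatives were library totals, no filter, 2 groups only, a replicate block, DESeq2 1.42.0, limma 3.58.1 on log2(FPKM + 1) or log2(FPKM + 0.1) for features of at least 1 FPKM in 3 libraries, and each library left out.

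The members and lists were chosen with earlier results of these data known. Named genes are the 10 members, NXF1, WDR74, features with the pattern of STX5 or its mirror, and, from each wider list, the 3 with the smallest p in each comparison against shNC. Motifs were searched in 250 bases before RefSeq starts. Replicates of a group differed beyond counting noise (chi-square over degrees of freedom 3.12 to 6.29).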

Additional observations from a re-analysis of the deposited data

Results flagged for a closer look

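Of the members and the 106 tested genes of the wider lists, NAPA and SAR1A alone differed between the 2 hairpins by the test of that difference itself. That is 1.89% of the list genes, beside 3.12% of all features. NAPA was higher with shSNHG1#2 than with shSNHG1#1, with a log2 fold change of 0.56 (edgeR adjusted p = 0.00727) and FPKM of 17.9 ± 0.870 in shSNHG1#2 and 11.02 ± 1.92 in shSNHG1#1 (SD, n = 3 each), and all 3 shSNHG1#2 libraries lay above all 3 shSNHG1#1 libraries. SAR1A was lower with shSNHG1#2 than with shSNHG1#1, with a log2 fold change of −0.12 (edgeR adjusted p = 0.0376). The SAR1A call was lost with library totals alone (adjusted p = 0.111), without a filter on low counts (0.0756), with only the 2 groups compared (0.0874), with limma on log2(FPKM + 1) (0.433), and without any 1 library (0.0548 to 0.195).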

How the results depend on the processing

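The count of partners past the threshold with shSNHG1#1 was 4 and lay between 3 and 4 under the other settings, and between 2 and 4 with 1 library left out. With shSNHG1#2 it was 1, and 4 with library totals alone and with limma on log2(FPKM + 1) or log2(FPKM + 0.1), and between 1 and 2 with 1 library left out. Between the hairpins it was 0 in every setting. Over all features, DESeq2 called 959 and the fit of only the 2 groups compared 386 between the hairpins, against 586 in the main test, with 297 to 534 when 1 library was left out. Library totals alone moved the share of higher calls between the hairpins to 74.8%, beside 64% in the main scaling. The replicate numbers did not pair the libraries (correlations of same-numbered deviations −0.0769 to 0.0775 over 13016 features). With the replicate block 3, 1 and 0 partners were called, SCFD1 with shSNHG1#1 being lost (adjusted p = 0.0515), and 8752, 8421 and 433 features. With that block NAPA passed the threshold with shSNHG1#2 (log2 fold change −0.17, adjusted p = 0.0346), and SAR1A did not pass it between the hairpins (0.0726). The ratio of the STX5 and NXF1 sum stayed at 0.224 to 0.230 with shSNHG1#1 and 0.238 to 0.244 with shSNHG1#2 when 1 library was left out.

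The values that changed sign were all small, none of them past the threshold in the main test, and their cause was not tested. BET1L with shSNHG1#1 was −0.0082 with DESeq2, −0.0089 without a filter and −0.012 with only the 2 groups, and −0.00082 without a filter with shSNHG1#2. STX6 was −0.064 and −0.068 with shSNHG1#1 and −0.088 and −0.094 with shSNHG1#2 by limma on FPKM with pseudocounts 1 and 0.1. With library totals alone GOSR1 was 0.0059 and SCFD1 0.021 with shSNHG1#2, and GOSR2 was 0.0084 and STX6 0.014 between the hairpins, where STX6 was 0.00024 with DESeq2 and YKT6 0.0051 and 0.0052 by limma. With 1 library left out, BET1L ran from −0.049 to 0.022 with shSNHG1#1, from −0.032 to 0.050 with shSNHG1#2 and from −0.024 to 0.059 between the hairpins, SCFD1 with shSNHG1#2 from −0.082 to 0.0029, and STX16 with shSNHG1#1 from −0.22 to 0.0024. Between the hairpins GOSR2 ran from −0.033 to 0.030, SEC22B from −0.0063 to 0.084 and STX6 from −0.025 to 0.017.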
